A study of Homo sapiens with 20 samples.

Results

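Serine, one-carbon, transsulfuration and asparagine enzymes were followed as 10 genes, out of the 36346 gene names in the RNA-seq tables of POLR1D-silenced colorectal cancer cells. The members were taken by gene symbol and each had 1 entry in every table. They comprised the serine synthesis enzymes PHGDH, PSAT1 and PSPH, the mitochondrial one-carbon enzymes SHMT2, MTHFD2, MTHFD1L and ALDH1L2, the transsulfuration enzymes CBS and CTH, and asparagine synthetase ASNS. The study compared cells transfected with 1 of 2 siRNAs against POLR1D, named siPOLR1D-2 and siPOLR1D-3, with cells transfected with a scrambled siRNA (SCR), to see which transcripts follow POLR1D. POLR1D encodes a subunit shared by RNA polymerases I and III. RNA was harvested 72 h after reverse transfection from 2 human colorectal cancer cell lines, HT29, which carries a focal amplification of the chromosome 13 region that holds POLR1D, and SW480, which carries a gain of the whole chromosome 13. HT29 was grown in DMEM and gave 4 SCR, 2 siPOLR1D-2 and 2 siPOLR1D-3 libraries, and SW480 was grown in RPMI and gave 6, 3 and 3. Silencing was transient, and no untransfected cells entered the comparison.

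Apart from ASNS, these enzymes form a connected route. PHGDH, PSAT1 and PSPH turn a glycolytic intermediate into serine in the cytosol, and SHMT2 in the mitochondrion splits serine into glycine and a one-carbon unit on tetrahydrofolate. MTHFD2 and MTHFD1L then oxidise that unit and release it as formate for purine and thymidylate synthesis, while ALDH1L2 oxidises it to CO2 with gain of NADPH. CBS joins serine to homocysteine and CTH cleaves the product to cysteine, a precursor of glutathione. ASNS makes asparagine from aspartate. Many of these genes are known targets of ATF4, the transcription factor of the amino acid response, and the serine and mitochondrial folate enzymes are often raised in proliferating tumour cells.

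Values are DESeq2-normalized read counts scaled within a cell line, so levels are compared between libraries of a line and not between genes. Their sum per library was 17619830 to 21098188 in HT29 and 19870433 to 22958216 in SW480. POLR1D was lower in every silenced library than in every SCR library of its line. It ranged from 4433 to 6036 with a median of 4860.5 in HT29 SCR, against 3414 and 3492 for siPOLR1D-2 and 2858 and 2549.6 for siPOLR1D-3, and from 1829 to 2599 with a median of 2030.3 in SW480 SCR, against 843 to 1336 in silenced cells. The log2 fold change of POLR1D was -0.72 in HT29 (SE 0.14, limma adjusted p = 0.355) and -1.04 in SW480 (SE 0.13, limma adjusted p = 0.000991). Of 10 colorectal epithelial markers 9 reached a value of 10 in the SCR cells of each line. The exceptions were CDX2 in HT29, at most 7.91 in any library, and LGALS4 in SW480 SCR, at most 9.07. Of 6 leukocyte markers 5 reached 10 in HT29, where their sum of 22293 to 32509 in SCR and 24566 to 32320 in silenced cells was nearly all LYZ, lysozyme, which intestinal secretory cells also make. In SW480 they summed to 121 to 257 in SCR and 161 to 852 in silenced cells, with CD68 and LYZ highest, and T-cell CD3E stayed at or below 4.68 in both lines. The 6 fibroblast markers summed to 18.3 to 27.8 in HT29 SCR, 26.9 to 84.3 in silenced HT29, and 235 to 1273 and 261 to 1131 in the same groups of SW480, and 4 endothelial markers to at most 14.3 in HT29 and 143 in SW480. The part of these cell markers in the results was not tested. HT29 SCR replicate 1 had the fewest gene names above 0 of the HT29 libraries, 17448, and the largest sum of values. It stood farthest apart on the first principal component of that line, at 88.3. SCR replicate 2 came next on that component at 18.7, and the other HT29 libraries lay at -15.1 or below. The SW480 libraries fell on both sides of theirs. SCR replicates 1 to 3 and siPOLR1D-2 replicates 1 and 2 were on the first side. SCR replicates 4 to 6, siPOLR1D-2 replicate 3 and all siPOLR1D-3 libraries were on the second, at -53.7 to -21.8. On the first side SCR replicate 1 lay at 14.1 and the others at 52.7 to 71.5, so its place there is less certain. The labels name no batch, so this division was read from the data. Fits that use it rest on a grouping taken from the same values, and their p-values do not account for that. No siPOLR1D-3 library lay on the first side, so siPOLR1D-3 could be compared within the second side alone. Lower RNA per cell and fewer expressing cells cannot be told apart in such bulk libraries.

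The promoter sequences of the members were read for the letters to which ATF4 and its C/EBP partners are known to bind, since these enzymes are listed among its targets. Of the 10 members 7 had an entry among the RefSeq promoter windows (GRCh38.p14, 250 bases before and 50 after a start site). PSPH, SHMT2 and ALDH1L2 had none. The motif TGATGNAA, searched on both strands, stood in 3.62% of all 35116 windows and in a window of 4.46% of all gene symbols. Among the 7 members it stood in the windows of ASNS and MTHFD1L. Both matches are shown with 11 flanking bases on each side and the motif in capitals, read along the gene's strand. The ASNS stretch shown is chr7:97872458-97872487 on the minus strand, with the motif at 97872469 to 97872476. The motif begins 68 bases before the RefSeq start site and lies within the bounds of the gene in GENCODE 29, which reach to 97872542. The MTHFD1L stretch shown is chr6:150866346-150866375 on the plus strand, with the motif at 150866357 to 150866364. That motif begins 129 and 90 bases before a pair of its RefSeq start sites and 24 after another. It too lies within the bounds of the gene in GENCODE 29.
ASNS: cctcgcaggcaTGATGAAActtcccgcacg
MTHFD1L: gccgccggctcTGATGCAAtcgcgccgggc

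Each value belongs to a whole gene, whose position in GENCODE 29 (GRCh38) and strand were as follows. Serine synthesis is spread over PHGDH at chr1:119648411-119744226 (plus), PSAT1 at chr9:78297143-78330093 (plus) and PSPH at chr7:56011051-56051604 (minus). The mitochondrial enzymes lie at chr12:57229327-57234935 (SHMT2, plus), chr2:74198562-74217565 (MTHFD2, plus), chr6:150865549-151101887 (MTHFD1L, plus) and chr12:105019784-105084577 (ALDH1L2, minus). CBS lies at chr21:43053191-43076943 (minus), CTH at chr1:70411218-70439851 (plus) and ASNS at chr7:97852118-97872542 (minus), the last within an annotated locus on the same strand that overlaps it. All are protein-coding, and none lies on chromosome 13 with POLR1D.

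Across the 10 members, 8 fell after POLR1D silencing in SW480 and none rose (limma on log2 values, adjusted p under 0.05 over 15019 genes tested). In the same comparison 4.29% of all tested genes were called lower. The 8 were PHGDH, PSAT1, SHMT2, MTHFD2, MTHFD1L, CBS, CTH and ASNS, with fold decreases between 1.33 for MTHFD1L and 3.45 for ASNS. The median log2 fold change of the members was -0.70, and that of all tested genes was 0.01. CTH and MTHFD2 also stand in the gene list that the study drew from these libraries, so their direction is not independent evidence. All 10 members were chosen with earlier results of these data known, so the count of members is a description and not independent evidence either. In HT29, 9 members passed the filter on low values and 0 were called, as was true of 0% of all 13274 genes tested (limma). At an unadjusted p under 0.05, 6 of the 9 were lower in HT29, against 6.05% of all tested genes. The members' median there was -0.66 and the median of all tested genes was 0.00. The absence of calls in HT29 does not show absence of change, since the silenced POLR1D was not called either. By DESeq2 on these HT29 libraries the study listed CTH, MTHFD2 and POLR1D as lower. Every silenced library lay below every SCR library for PHGDH and ASNS in SW480, a pattern seen in 2.88% of tested genes, and for PSPH in HT29, where it was seen in 4.17%.

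**Figure D1:**
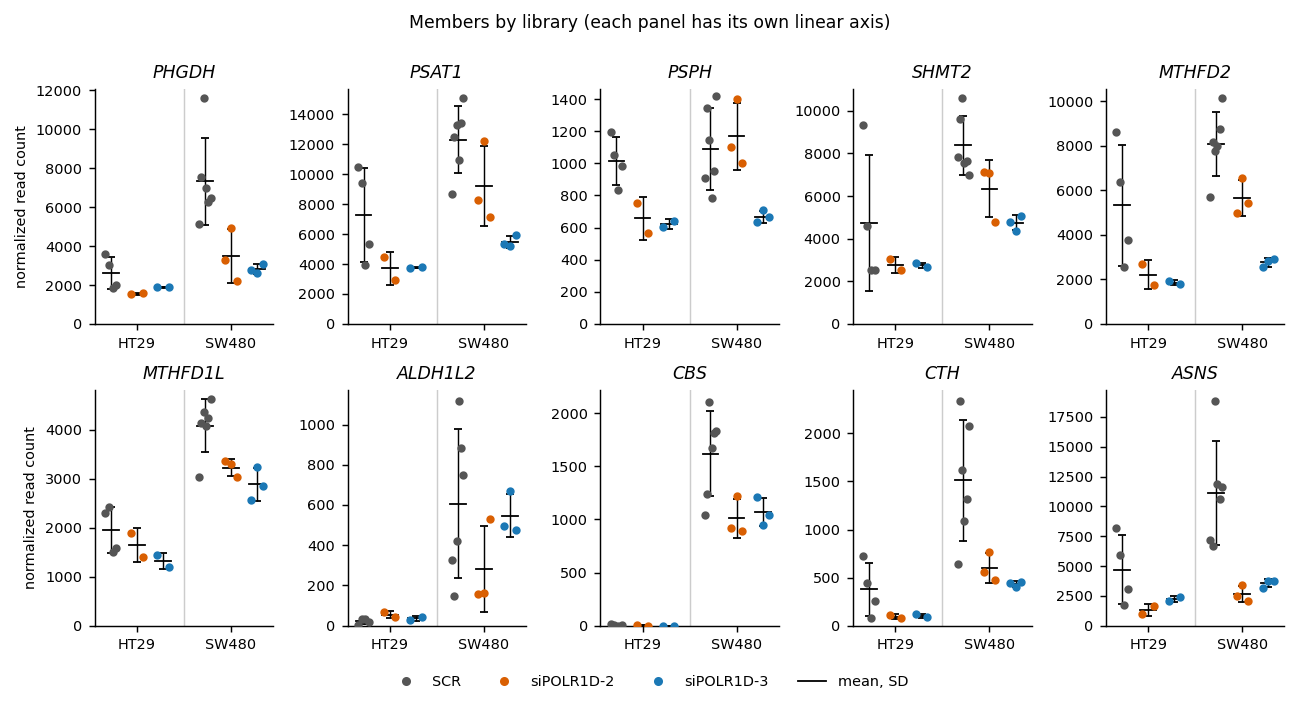
Normalized read counts of the 10 members in all 20 libraries, one panel per gene with a linear axis from 0, HT29 left and SW480 right of the grey line. Points are libraries (SCR grey, siPOLR1D-2 orange, siPOLR1D-3 blue), bars give the mean and SD of each group, ASNS and PHGDH separate completely in SW480, the HT29 SCR points spread over the silenced ones in most panels, and CBS is close to 0 in HT29.

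PHGDH, which commits the glycolytic intermediate to serine and is the first enzyme of the route, ranged from 5143 to 11593 with a median of 6729.8 in the 6 SW480 SCR libraries. It was 3297, 4946 and 2221 in the siPOLR1D-2 libraries and 2766, 2616 and 3083 in the siPOLR1D-3 libraries, all below the lowest SCR value. The group means were 7335 ± 2234 (SD, n = 6) and 3155 ± 954 (SD, n = 6), a log2 fold change of -1.22 (SE 0.20, limma adjusted p = 0.00564; exact permutation test, 2-sided, p = 0.00216, the smallest that 6 against 6 libraries allow). In HT29, PHGDH was 3593, 3020.0, 1846 and 2018 in SCR replicates 1 to 4, 1518 and 1596 with siPOLR1D-2 and 1908 and 1874 with siPOLR1D-3. SCR replicates 1 and 2 were high, and SCR replicate 3 lay below both siPOLR1D-3 libraries. The HT29 log2 fold change of -0.56 did not pass the test (SE 0.21, limma adjusted p = 0.430; exact permutation p = 0.0857, where 4 against 4 libraries allow 0.0286 at the least).

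PSAT1, the aminotransferase of the middle step, ranged from 8662 to 15088 with a median of 12862 in SW480 SCR. It was 8280.2, 12196 and 7140.0 with siPOLR1D-2 and 5318, 5197 and 5934 with siPOLR1D-3. Of the 6 silenced libraries 5 lay below every SCR library, the exception being siPOLR1D-2 replicate 2. The log2 fold change was -0.79 (SE 0.20, limma adjusted p = 0.0327). In HT29, PSAT1 was 10465, 9387, 3911 and 5363 in the SCR libraries, 4463 and 2939 with siPOLR1D-2 and 3724 and 3785 with siPOLR1D-3. Again the first and second SCR replicates were the high ones, and siPOLR1D-2 replicate 1 exceeded SCR replicate 3 (log2 fold change -0.87, SE 0.29, limma adjusted p = 0.409).

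PSPH, the phosphatase that releases serine, separated the groups completely in HT29 and not in SW480. In HT29 it was 1193, 1053, 832 and 981 in SCR and 753 and 563 with siPOLR1D-2 and 601 and 643 with siPOLR1D-3. All 4 silenced libraries lay below all 4 SCR libraries (exact permutation test, 2-sided, p = 0.0286, the smallest possible), although the limma adjusted p of 0.355 did not pass the threshold (log2 fold change -0.66, SE 0.14). In SW480 SCR it ranged from 781 to 1420.3 with a median of 1048. With siPOLR1D-2 it was 1102, 1399.9 and 1001, within the SCR range, and with siPOLR1D-3 it was 632, 707 and 663, below it. The pooled SW480 log2 fold change of PSPH was -0.28 (SE 0.21, limma adjusted p = 0.461), and the test of the difference in response between the lines did not pass (limma adjusted p = 0.804).

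SHMT2, the mitochondrial entry point for serine carbon, ranged from 6990.1 to 10589 with a median of 7735 in SW480 SCR. It was 7146, 7059.7 and 4788 with siPOLR1D-2 and 4799, 4369 and 5074 with siPOLR1D-3. Replicates 1 and 2 of siPOLR1D-2 stayed within the SCR range and the other 4 silenced libraries lay below it (log2 fold change -0.61, SE 0.15, limma adjusted p = 0.0277). In HT29 SCR, SHMT2 was 9320.0, 4603, 2513 and 2520.0, with replicate 1 far above the other 3. The 4 silenced HT29 libraries ran from 2513 to 3039.8, and none lay below every SCR library (log2 fold change -0.56, SE 0.37, limma adjusted p = 0.573). Without SCR replicates 1 and 2 the log2 fold change of SHMT2 in HT29 was 0.13.

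MTHFD2, the dehydrogenase and cyclohydrolase that is low in most adult tissues and high in many tumours, ranged from 5713 to 10129 with a median of 8051 in SW480 SCR. It was 4997, 6534 and 5432 with siPOLR1D-2 and 2549.6, 2837 and 2908 with siPOLR1D-3. The siPOLR1D-3 libraries formed a group of their own below both other groups, and siPOLR1D-2 replicate 2 alone overlapped the SCR range. The pooled log2 fold change was -1.01 (SE 0.23, limma adjusted p = 0.0222). In HT29, MTHFD2 was 8619.9, 6346, 2548 and 3743 in SCR, 2683 and 1747 with siPOLR1D-2 and 1929 and 1781 with siPOLR1D-3. Of the 4 silenced libraries 3 lay below every SCR library (log2 fold change -1.25, SE 0.34, limma adjusted p = 0.355).

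MTHFD1L, which releases the one-carbon unit as formate, changed by less. It ranged from 3040.3 to 4626 with a median of 4182 in SW480 SCR, and was 3353, 3293 and 3024 with siPOLR1D-2 and 2572, 3235 and 2846 with siPOLR1D-3. SCR replicate 1 was the lowest SCR library and fell among the silenced ones (log2 fold change -0.41, SE 0.11, limma adjusted p = 0.0395). HT29 gave 2304, 2422, 1500.2 and 1593 in SCR, 1892 and 1396 with siPOLR1D-2 and 1439 and 1206 with siPOLR1D-3, again with SCR replicates 1 and 2 highest and siPOLR1D-2 replicate 1 above SCR replicates 3 and 4 (log2 fold change -0.39, SE 0.19, limma adjusted p = 0.499).

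ALDH1L2, the enzyme that oxidises the formyl unit to CO2, was not called in the pooled comparison of either line. In SW480 SCR its values in replicates 1 to 6 were 325, 148, 423, 1115, 884 and 748, and it was 156, 161 and 529.6 with siPOLR1D-2 and 497, 668 and 476 with siPOLR1D-3. Across both groups the 5 libraries of the first side stayed at or below 423 and the 7 of the second side were at or above 476, whatever the siRNA. The pooled log2 fold change was -0.47 (SE 0.50, limma adjusted p = 0.619). With the side as a covariate it was -0.76 (limma adjusted p = 0.0296). Among the libraries of the second side alone it was -0.75 (limma adjusted p = 0.0174). The side was read from these same libraries, and the p-values of the fits that use it do not account for that. In HT29 the values of ALDH1L2 were low, 4.4 to 34.9 in SCR and 28.6 to 67.1 in the silenced libraries. ALDH1L2 was the 1 member with a positive log2 fold change in HT29, 1.25 (SE 0.58, limma adjusted p = 0.482).

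CBS, the entry enzyme of transsulfuration, was scarcely detected in HT29, at most 12.3 in any library and 0 in 3 of the 8, and was not tested there. In SW480 SCR it ranged from 1042 to 2110.2 with a median of 1745. It was 919, 1220.0 and 888 with siPOLR1D-2 and 1208, 951 and 1044 with siPOLR1D-3. The silenced libraries overlapped SCR replicate 1 and lay below SCR replicates 2 to 6 (log2 fold change -0.61, SE 0.17, limma adjusted p = 0.0432). CBSL, an almost identical copy of CBS on the same chromosome, held 8.62 to 147 in SW480 SCR and 8.85 to 74.6 in silenced cells, and reads of the pair may have been divided between them, which makes the CBS values uncertain to that extent.

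CTH, which releases cysteine from cystathionine, showed the second largest decrease of the members in SW480. It ranged from 637 to 2335 with a median of 1465 in SCR, and was 554, 771 and 477 with siPOLR1D-2 and 446, 402 and 454 with siPOLR1D-3. Of the 6 silenced libraries 5 lay below every SCR library, and only siPOLR1D-2 replicate 2 exceeded the lowest of them, SCR replicate 1 (log2 fold change -1.46, SE 0.27, limma adjusted p = 0.00960). In HT29 the SCR values of 728, 439, 83.6 and 260.4 were far apart, with replicate 1 highest and replicate 3 lowest. The silenced values of 113 and 75.3 with siPOLR1D-2 and 119.6 and 90.2 with siPOLR1D-3 were all close to SCR replicate 3 and below the other SCR libraries (log2 fold change -1.55, SE 0.55, limma adjusted p = 0.427).

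ASNS shares the motif in a promoter window with MTHFD1L, which had the smallest decrease of the 8 members called in SW480. ASNS had the largest decrease of the members there, and a part of the motif in this was not tested. The SCR libraries ranged from 6695 to 18824 with a median of 11147, against 2451, 3439 and 2066 with siPOLR1D-2 and 3174, 3759 and 3761 with siPOLR1D-3. The highest silenced library lay well below the lowest SCR library (log2 fold change -1.79, SE 0.23, limma adjusted p = 0.00166; exact permutation test, 2-sided, p = 0.00216). In HT29, ASNS was 8177, 5881, 1691 and 3037 in SCR, 949 and 1683 with siPOLR1D-2 and 2049.6 and 2414 with siPOLR1D-3. SCR replicate 3 lay among the silenced libraries (log2 fold change -1.24, SE 0.47, limma adjusted p = 0.430).

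The SW480 calls of several members changed when single libraries were left out. When each of the 12 libraries was left out in turn, PHGDH, CTH and ASNS passed the limma threshold in all 12 fits, MTHFD2 in 10, SHMT2 in 6, and PSAT1, MTHFD1L and CBS in 3 each. The number of members called ranged from 3 to 8 and came to 5 or fewer without any one of SCR replicates 2 to 6, siPOLR1D-2 replicate 3 or a siPOLR1D-3 library. Among the 7 libraries of the second side the log2 fold changes were -1.31 for PHGDH, -1.16 for PSAT1, -1.44 for MTHFD2 and -1.69 for CTH, each past the threshold. Among the 5 libraries of the first side 0 members and 0 genes were called (limma; 2 members, PHGDH and ASNS, and 1520 genes at an unadjusted p under 0.05), and the same values were -0.92, -0.17, -0.32 and -1.03. ASNS was similar on both, at -1.73 on the first and -1.87 on the second side, and PSPH was 0.15 on the first. SCR replicate 1, whose side was less certain, was the lowest of the 3 first-side controls for PHGDH, PSAT1, MTHFD2 and CTH. In HT29, leaving out SCR replicates 1 and 2, a step added after the values were seen, brought the log2 fold changes to -0.62 for MTHFD2, -0.59 for CTH, -0.50 for PSPH, -0.43 for ASNS, -0.31 for PSAT1 and -0.17 for PHGDH, with 0 calls (limma; MTHFD2, PSPH and 1614 genes in all at an unadjusted p under 0.05).

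**Figure D2:**
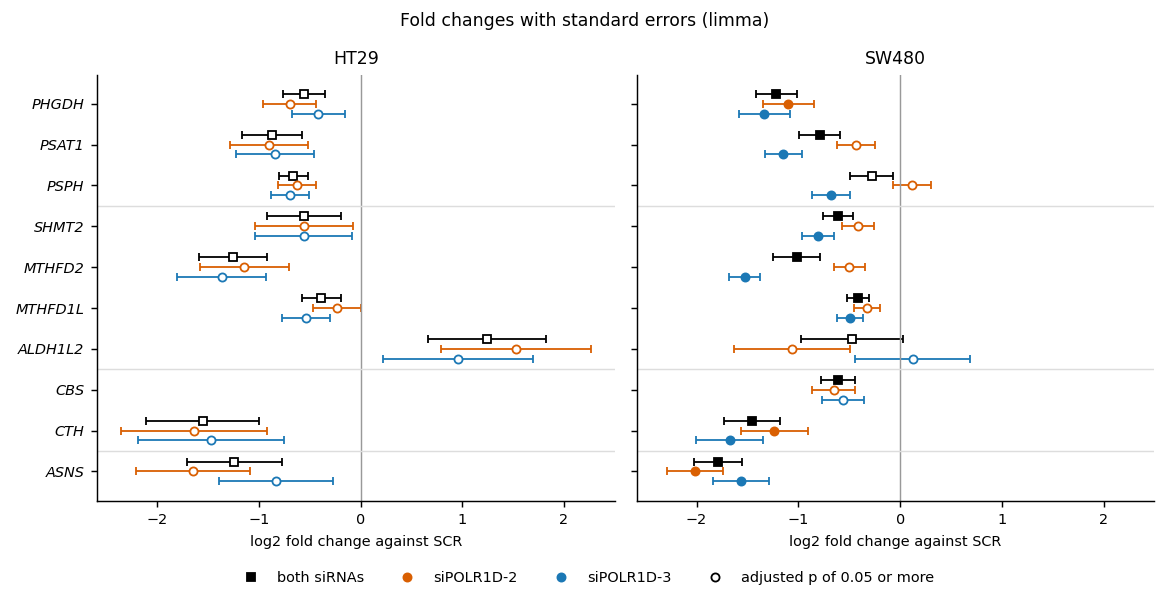
Log2 fold changes of the members against SCR with their standard errors, HT29 left and SW480 right, for both siRNAs pooled (black), siPOLR1D-2 (orange) and siPOLR1D-3 (blue); filled symbols have a limma adjusted p under 0.05. All HT29 symbols are open, and in SW480 the siPOLR1D-3 values of PSAT1, PSPH and MTHFD2 lie to the left of the siPOLR1D-2 values.

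The siRNAs were also taken one at a time, against the same SCR libraries, so that these comparisons share their controls. In SW480, 3 of the 10 members were called with siPOLR1D-2, all lower, where 8.16% of all tested genes were called, 1225 in all and 751 of them lower (limma, adjusted p under 0.05). With siPOLR1D-3, 8 members were called, all lower, where 6.60% of all tested genes were called, 992 in all and 669 of them lower. PHGDH, CTH and ASNS were called with both. For PHGDH the log2 fold change was -1.10 with siPOLR1D-2 and -1.33 with siPOLR1D-3, for CTH -1.24 and -1.68, and for ASNS -2.01 and -1.56. PSAT1, PSPH, SHMT2, MTHFD2 and MTHFD1L were called with siPOLR1D-3 alone. CBS had log2 fold changes of -0.65 and -0.57 and was called with neither siRNA taken singly. In HT29 neither siRNA gave a call among the 9 members tested or among all genes (0% called by limma with each); at an unadjusted p under 0.05, 5 members passed with siPOLR1D-2 and 2 with siPOLR1D-3, and 579 and 1031 genes in all.

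The direct test between the siRNAs in SW480 called 1 of 10 members, MTHFD2, and 3.32% of all tested genes. MTHFD2 was lower with siPOLR1D-3 than with siPOLR1D-2 by a log2 difference of -1.03 (SE 0.18, limma adjusted p = 0.0130), with all 3 siPOLR1D-3 libraries below all 3 siPOLR1D-2 libraries. The differences for PSPH (-0.79, limma adjusted p = 0.0615) and PSAT1 (-0.71, limma adjusted p = 0.0816) did not pass the test. Within the second side 1 siPOLR1D-2 library could be set against 3 siPOLR1D-3 libraries, and the MTHFD2 difference was -0.98. ASNS went the other way there, higher with siPOLR1D-3 by 0.78, while over all libraries its difference was 0.45 (limma adjusted p = 0.422). With 1 library in a group, no p-value is given for these second-side values. Leaving out siPOLR1D-2 replicate 2 or any siPOLR1D-3 library ended the MTHFD2 call, with adjusted p between 0.0552 and 0.0747 (limma). POLR1D itself did not differ detectably between the siRNAs in SW480 (-0.10, SE 0.18, limma adjusted p = 0.784). In HT29 the direct test called 0 of 9 members and 0% of genes (limma), and 0 members and 207 genes passed at an unadjusted p under 0.05.

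MTHFD2L, the paralog of MTHFD2 that is also mitochondrial, rose with siPOLR1D-2 and was not called with siPOLR1D-3 in SW480. It was 193, 186, 163, 183, 168 and 206 in the 6 SCR libraries and 163, 164 and 156 with siPOLR1D-3, and 389, 467 and 398 with siPOLR1D-2. The siPOLR1D-2 libraries lay above every other SW480 library. The log2 fold change against SCR was 1.19 with siPOLR1D-2 (SE 0.13, limma adjusted p = 0.000637) and -0.18 with siPOLR1D-3 (limma adjusted p = 0.418), and the siRNAs differed by -1.37 (limma adjusted p = 0.00333). In HT29 it was 104 to 135 in SCR and 97.2 to 128 in silenced cells, in overlapping ranges. The cytosolic counterparts SHMT1, MTHFD1 and ALDH1L1 were not called in either line with the siRNAs pooled, and ALDH1L1 was called lower in SW480 with siPOLR1D-2 (-1.36, limma adjusted p = 0.0396). SHMT1, the cytosolic form of SHMT2, was 917 ± 162 (SD, n = 6) in SW480 SCR and 834 ± 132 (SD, n = 6) in silenced cells. MTHFD1, the cytosolic trifunctional enzyme, was 14540.4 ± 1393 (SD, n = 6) and 15054 ± 1179 (SD, n = 6), a log2 fold change of 0.05 (SE 0.09, limma adjusted p = 0.774), where MTHFD1L changed by -0.41. In HT29 SCR replicate 1, in which SHMT2 and MTHFD2 were highest, MTHFD1 and SHMT1 were lowest, at 4312 and 549.9 against at least 7709 and 1216 in all other HT29 libraries.

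**Figure D3:**
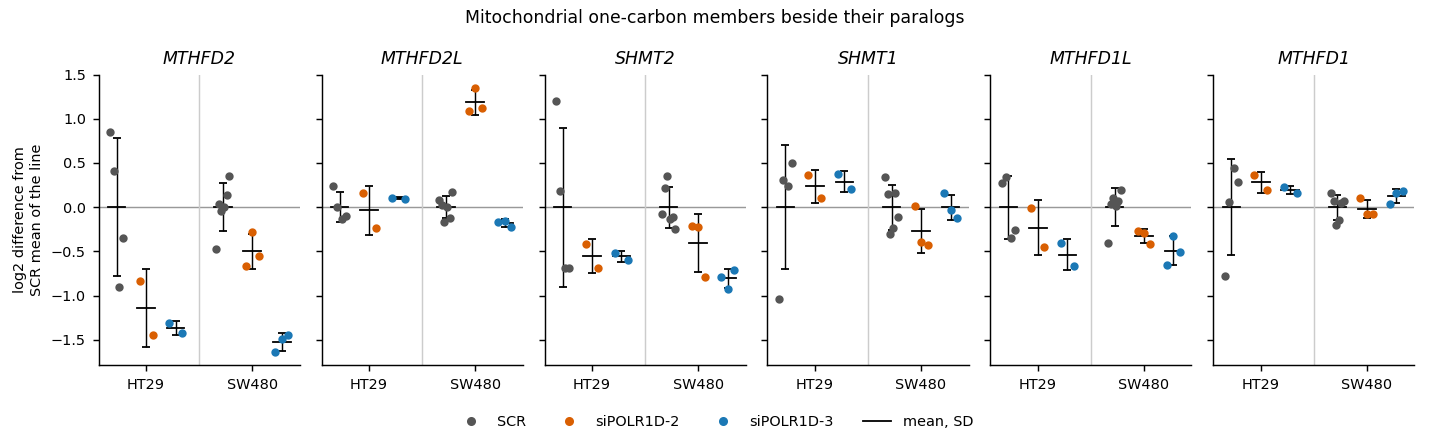
Log2 difference of each library from the SCR mean of its line for MTHFD2, SHMT2 and MTHFD1L beside their paralogs MTHFD2L, SHMT1 and MTHFD1, with group means and SD. In SW480 the 3 siPOLR1D-2 libraries are the highest for MTHFD2L, the 3 siPOLR1D-3 libraries are the lowest for MTHFD2, and the silenced SHMT1 and MTHFD1 points lie around the SCR points.

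The steps were set side by side by the median log2 fold change of their members, as a description with no test. In SW480 the median was -0.79 for serine synthesis, -0.54 for the mitochondrial one-carbon enzymes, -1.03 for transsulfuration and -1.79 for ASNS alone. In HT29 it was -0.66, -0.47, -1.55 for CTH alone and -1.24 for ASNS. The mitochondrial median was thus the nearest to 0 in both lines, although among the SW480 libraries of the first side it was -0.35 against -0.17 for serine synthesis. Its single values ran from -1.01 for MTHFD2 to -0.41 for MTHFD1L in SW480, which overlapped those of serine synthesis, -1.22 for PHGDH to -0.28 for PSPH. Within single silenced libraries the mean difference from the SCR mean was less negative for the mitochondrial step than for serine synthesis in 4 of 4 HT29 and 4 of 6 SW480 libraries. The exceptions were siPOLR1D-2 replicates 1 and 2 of SW480, with -0.54 and -0.04 for serine synthesis against -0.70 and -0.61 for the mitochondrial step. It was also less negative than that of transsulfuration and of ASNS in all 4 and all 6. ALDH1L2 is part of the mitochondrial mean, and its HT29 value of 1.25 had the opposite sign to those of the other 3. Without ALDH1L2, a choice made after its values were seen, the mitochondrial mean was less negative than that of serine synthesis in 2 of 4 HT29 libraries, both with siPOLR1D-2, and 5 of 6 SW480 libraries, so that ALDH1L2 decided the HT29 count. It was then less negative than that of transsulfuration in 4 of 4 and 5 of 6, and than that of ASNS in 3 of 4 and 6 of 6. The mitochondrial median without ALDH1L2 was -0.56 in HT29 and -0.61 in SW480.

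The same mean per library, taken here as a score of a step, is shown for both. Serine synthesis scores in the SW480 libraries were -0.54, -0.04 and -0.84 with siPOLR1D-2 and -1.10, -1.08 and -0.97 with siPOLR1D-3, against -0.39 to 0.31 in SCR, and 5 of 6 lay below every SCR library. The mitochondrial scores were -0.70, -0.61 and -0.42 with siPOLR1D-2 and -0.77, -0.58 and -0.68 with siPOLR1D-3, against -0.40 to 0.26 in SCR, and 6 of 6 lay below. Without ALDH1L2 5 of 6 lay below, since siPOLR1D-2 replicate 2 was then at -0.27 and SCR replicate 1 at -0.32. In HT29 the mitochondrial scores of 0.14 and -0.34 with siPOLR1D-2 and -0.40 and -0.35 with siPOLR1D-3 overlapped the SCR range of -0.31 to 0.46. The serine scores of HT29 did not overlap, with -0.58 and -0.90 for siPOLR1D-2 and -0.67 and -0.63 for siPOLR1D-3 against -0.50 to 0.46, and those of CTH did, with SCR from -1.78 to 1.33.

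**Figure D4:**
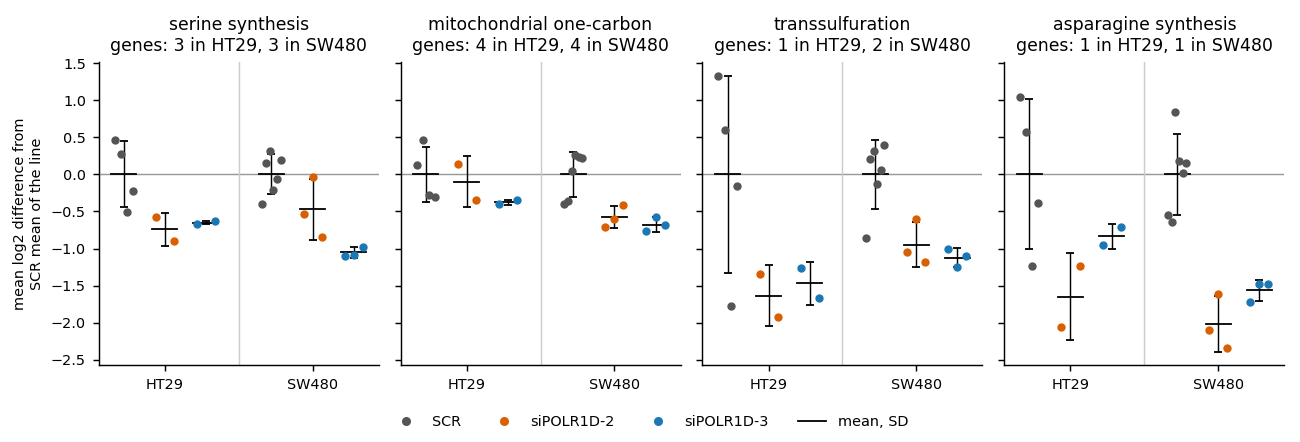
Mean log2 difference from the SCR mean of the line over the members of each step, per library, with group means and SD; the number of genes behind each score is in the panel titles. The HT29 SCR libraries spread from -1.78 to 1.33 for transsulfuration (CTH alone there), and the SW480 silenced libraries lie below 0 in every panel.

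The response of the members was compared between the lines by the interaction of silencing and cell line in 1 limma fit of all 20 libraries. Of the 9 members tested in both lines, 0 differed (limma adjusted p from 0.576 to 0.986), and 0.0393% of the 12724 genes tested did. At an unadjusted p under 0.05, 1092 of the 12724 genes differed, PHGDH and ALDH1L2 among them. Their response in SW480 minus that in HT29 was -0.66 (SE 0.32) and -1.72 (SE 0.81). The standard errors of these differences ran from 0.21 for MTHFD1L to 0.81 for ALDH1L2, so that only differences well above these could have been called. PHGDH passed this test with array weights (-0.93, limma adjusted p = 0.0286). The calls among all genes were not counted in that fit, so this is no result particular to PHGDH.

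Genes around the members in the same pathways were counted from lists, and 14 of the 71 tested fell and 3 rose in SW480 (limma), where 4.29% of all tested genes fell and 2.44% rose. In HT29, 0 of 70 were called, as were 0% of all genes (limma). These lists were chosen with earlier results of these data known, so the counts are a description and not independent evidence. Of the genes that fell, ATF4, DDIT3, ATF3, SLC7A11, SLC1A4 and GPT2 also stand in the gene list that the study drew from these libraries. Transcription factors and regulators of the amino acid response, listed together with NFE2L2 and MYC, were the list with the most calls in SW480, 7 of 8, all lower. ATF4, its central factor, went from 6832 ± 857 (SD, n = 6) to 3939 ± 879.7 (SD, n = 6) (log2 fold change -0.81, limma adjusted p = 0.00649). The others were -1.74 for DDIT3, -1.74 for ATF3, -1.22 for CEBPB, -0.85 for CEBPG, -1.70 for TRIB3 and -0.65 for NFE2L2 on the log2 scale, and MYC at -0.42 was not called (limma adjusted p = 0.144). In HT29, ATF4 was 5698, 4757, 3308 and 4553 in SCR and 2559.7 to 3002 in silenced cells, without overlap and without a call (log2 fold change -0.71, limma adjusted p = 0.355).

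Single genes of the other lists were called in SW480. The neutral amino acid transporter SLC1A4, which carries serine, fell from 1159 ± 286 (SD, n = 6) to 592 ± 90.9 (SD, n = 6) (-0.95, limma adjusted p = 0.00496), and serine racemase SRR rose (0.78, limma adjusted p = 0.0126), as 2 of 7 tested genes of serine supply and use. The cystine transporter SLC7A11 fell from 461 to 2743 in SCR to 248 to 978 in silenced cells (-1.69, limma adjusted p = 0.0306), the 1 call among 11 tested cysteine and glutathione genes. Among 11 neighbours in asparagine, proline and glutamate metabolism, GOT1, the cytosolic aspartate aminotransferase, fell from 1445 ± 566 (SD, n = 6) to 691 ± 81.7 (SD, n = 6) (limma adjusted p = 0.00803), ASL and GPT2 fell (-0.51 and -0.96), and glutamine synthetase GLUL rose (0.60). Of 6 folate supply genes the reduced folate carrier SLC19A1 rose, from 234 ± 37.8 (SD, n = 6) to 374 ± 61.9 (SD, n = 6) (0.67, limma adjusted p = 0.0185), and of 8 methionine cycle genes AHCYL1 fell (-0.71, limma adjusted p = 0.0112). No gene was called among 9 other folate enzymes (median log2 fold change 0.17), 7 enzymes of purine synthesis (-0.17) or 4 glycine cleavage genes (-0.19).

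The genes whose values ran most closely with the members were found by Pearson's r to the members' mean, each gene centred within its cell line and scaled, over 20 libraries, as a description, since all genes share the libraries and their depth. Among 12715 genes outside the members the 5 highest were MARS (0.976), CEBPG (0.967), YARS (0.966), TRIB3 (0.965) and CARS (0.964). MARS, YARS and CARS encode the cytosolic methionyl-, tyrosyl- and cysteinyl-tRNA synthetases. The cysteinyl enzyme CARS went from 1939 to 2925 in SW480 SCR to 1085 to 1653 in silenced cells. TRIB3, a pseudokinase of the amino acid response, was 2660.0, 1553, 243 and 365 in HT29 SCR, in the same order of libraries as MTHFD2 and CTH. The members' own r to their mean, of which each is a part, ran from 0.756 for PSPH to 0.971 for PSAT1, with ALDH1L2 at -0.23.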

How the data were processed

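RNA was captured with the TruSeq RNA Exome kit and sequenced as 75-base read pairs on a NextSeq. The authors quantified transcripts with kallisto 0.44.0 and deposited 1 table per library of a signal, the DESeq2 (1.24.0) normalized read count per gene. FastQC 0.11.5 and hg38 are named in the submitters' processing notes, and the transcript index is not given in the sources used here. The values are not whole and whole reads could not be recovered from them, so no count model was used and depth in reads is unknown. Exome capture and the within-line scaling mean that values show relative levels.

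Entries that share a name were summed. A gene was tested if it reached 10 in 4 or more HT29 or 6 or more SW480 libraries, by limma 3.58.1 (R 4.3.3) on log2(value + 1), with a mean-variance trend, equal library weights and Benjamini-Hochberg adjustment over all genes tested in a line. Fold changes are on that scale and understate changes of low genes such as ALDH1L2 in HT29. Each line was fitted alone, siRNAs pooled or as 3 groups, and the lines were compared by an interaction. The unit needed this test, as had been planned. An exact permutation test over libraries was added for single genes (scipy 1.17.1). The script was tested on simulated data. Groups follow the sample titles. Nothing says that replicates came from separate cultures, so p-values measure the spread between these libraries.

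All 10 members were named, with the called genes and paralogs of the pathway lists and the 5 genes most like the members. Not every called gene of the lists is reported here by name. The members and lists were chosen with earlier results of these data known. The alternatives were another pseudocount, filter, scaling, variance model, library weighting, threshold, replicate block or set of libraries.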

Additional observations from a re-analysis of the deposited data

Results flagged for a closer look

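In 3 of 40 sets of values, each 1 member in a group of 4 or 6 libraries, 1 library lay far from the rest of its group, and chance gives this in about 1 in 20 such sets. PHGDH was 11593 in SW480 SCR replicate 3, against 5143 to 7533 in the other SCR libraries. Without that library the SW480 log2 fold change of PHGDH was -1.08, still past the limma threshold. MTHFD1L was 3040 in SW480 SCR replicate 1, against 4076 to 4626 in the others, and its log2 fold change was -0.49 without that library. CBS was 7.11 in HT29 siPOLR1D-2 replicate 1, against 0 to 0.834 in the other silenced HT29 libraries, all low values of a gene that was not tested there.

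MTHFD2 differed between the siRNAs in SW480, with siPOLR1D-3 lower than siPOLR1D-2 by a log2 difference of -1.03 (limma adjusted p = 0.0130).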

How the results depend on the processing

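In SW480, 1011 genes and 8 members were called. The count of genes was 666 without a filter on low values, 3057 with array weights, 1821 and 182 at adjusted p under 0.1 and 0.01, 0 and 1939 among the libraries of the first and the second side, and 1993 with the side as a covariate. The count of members was 5 without a trend and with both lines in 1 fit, 3 at adjusted p under 0.01, and 0 on the first side. With 1 library left out, 3 to 8 members and 534 to 1283 genes were called. The serine synthesis median (-0.79) was -1.12 with array weights, -0.17 on the first side and -1.16 on the second, and PSPH was 0.15 on the first side. For siPOLR1D-2 alone the count of members (3) was 1 with only that siRNA and SCR or with SCR replicates 1 to 3 as controls, and 1 to 6 with a library left out; for siPOLR1D-3 (8) it was 2 to 9. The members that differed between the siRNAs (1) numbered 0 to 2 with a library left out. In these alternative fits per siRNA the calls among all genes were not counted, so the counts are no result about the members. In HT29, 4 genes were called with both lines in 1 fit, and 0 to 1 with a library left out. The HT29 mitochondrial median (-0.47) was 0.0270 and SHMT2 0.13 without SCR replicates 1 and 2. The HT29 difference of MTHFD2 between the siRNAs was -0.53 to 0.0853 with a library left out. The interaction called 1 member, PHGDH, with array weights, where the calls among all genes were not counted. The cause was not tested for any of these.

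Whether the replicate numbers of silenced and SCR libraries mark pairs is not known. The correlation of deviations between libraries of the same number was -0.60 to 0.39 for siPOLR1D-2 and 0.04 to 0.10 for siPOLR1D-3 in SW480. In HT29 it was -0.17 to 0.04. With 3 such pairs per siRNA in SW480 and 2 in HT29, these values cannot decide it. The replicate block takes out the SCR replicates whose number no silenced library shares, 4 to 6 in SW480 and 3 and 4 in HT29. With the block, 0 members and 0 genes were called in SW480, and 0 members for siPOLR1D-2 (limma). At an unadjusted p under 0.05, 6 members and 3003 genes passed, and the log2 fold change of ALDH1L2 was 0.39. The only controls left there, SCR replicates 1 to 3, lay on the first side, and every siPOLR1D-3 library lay on the second. A part of the side in these values was not tested. In HT29 the block left SCR replicates 1 and 2, high for most members, as the only controls. The block then gave 7 members and 735 genes there. Per siRNA it gave 1 member for siPOLR1D-2 and 2 for siPOLR1D-3, where the calls among all genes were not counted. The mitochondrial median was -0.97 beside a serine synthesis median of -0.94. No other direction of a member changed under any alternative run. Depth in reads is unknown, which limits low values such as CBS in HT29.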
